A study of Homo sapiens with 2 samples.

Results

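The SLC25 genes encode the mitochondrial carriers. Family members with other symbols, such as UCP1, were left out of the counts. The genes counted here were the protein-coding RefSeq genes whose symbol starts with SLC25A and a number. There were 48 of them among 20037 protein-coding genes on chromosomes 1 to 22, X and Y. Each was joined to the ETV4 peaks within 1 kb of either of its outer ends in 1 anti-Flag ChIP-seq library, called against 1 input library. Both libraries came from A549 cells, an established human non-small cell lung cancer (NSCLC) line, that carried an shRNA against ETV4 and received Flag-ETV4 again from a transfected plasmid. The input shared the cell line, carried no antibody and enters only through the values that the peak caller gave each peak. The peaks are therefore those of a tagged protein made from a plasmid in 1 line, and there was no second ETV4 library, no other line and no library from cells without Flag. A peak list holds no expression, so neither the identity of the cells nor the transcription of any carrier could be checked in it. No replicate spread exists, and no difference below was tested.

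Mitochondrial carriers are small membrane proteins, almost all in the inner membrane, that exchange metabolites, nucleotides, cofactors and ions between the cytosol and the matrix. They are encoded in the nucleus and reach the inner membrane through the TIM22 translocase. Some, such as the phosphate carrier, are needed in nearly every cell, whereas others are made mainly in liver, muscle, brain, testis or erythroid cells. ETV4 belongs to the PEA3 group of the ETS family, whose members bind DNA around a GGAA core. GABP, another ETS factor, is known for its sites in promoters of nuclear genes for mitochondrial proteins.

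For 40 of the 48 genes RefSeq gave at least 1 start window, the 300 bases from 250 before to 50 after a transcription start on GRCh38.p14. The other 8, among them SLC25A2, SLC25A16, SLC25A30, SLC25A32, SLC25A35, SLC25A37 and SLC25A41, entered by their outer ends alone. Below are 7 windows on which the later comparisons turn, read 5′ to 3′ along the gene's strand. SLC25A46 had the highest peak of the family, and SLC25A14 and SLC25A38 had strong peaks close to their start. SLC25A4 had a weak peak and SLC25A47 none, although both windows hold the same motif as the first 3. SLC25A40 had the second highest peak and SLC25A31 no peak, and neither window holds it. Capitals mark CCGGAAG, an ETS-type sequence, or CTTCCGG, the same site on the other strand.
SLC25A46, chr5:110738757-110739056, plus strand: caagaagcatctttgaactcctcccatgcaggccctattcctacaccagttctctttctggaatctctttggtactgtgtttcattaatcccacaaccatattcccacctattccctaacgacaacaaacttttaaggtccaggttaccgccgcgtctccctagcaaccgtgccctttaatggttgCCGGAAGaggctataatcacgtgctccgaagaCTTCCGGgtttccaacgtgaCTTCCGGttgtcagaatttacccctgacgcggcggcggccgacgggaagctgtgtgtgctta
SLC25A14, chrX:130339669-130339968, plus strand: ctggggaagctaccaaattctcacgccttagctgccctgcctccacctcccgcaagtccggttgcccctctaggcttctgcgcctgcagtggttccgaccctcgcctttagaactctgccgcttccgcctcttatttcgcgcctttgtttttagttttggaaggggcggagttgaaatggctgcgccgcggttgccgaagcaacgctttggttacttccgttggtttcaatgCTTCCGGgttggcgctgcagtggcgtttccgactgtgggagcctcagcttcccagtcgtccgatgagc
SLC25A38, chr3:39383120-39383419, plus strand: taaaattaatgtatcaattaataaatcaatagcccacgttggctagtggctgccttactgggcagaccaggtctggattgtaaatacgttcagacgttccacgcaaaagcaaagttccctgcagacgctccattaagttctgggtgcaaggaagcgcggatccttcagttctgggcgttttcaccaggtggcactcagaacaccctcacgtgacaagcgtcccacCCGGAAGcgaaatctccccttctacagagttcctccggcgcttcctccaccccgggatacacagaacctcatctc
SLC25A4, chr4:185143016-185143315, plus strand: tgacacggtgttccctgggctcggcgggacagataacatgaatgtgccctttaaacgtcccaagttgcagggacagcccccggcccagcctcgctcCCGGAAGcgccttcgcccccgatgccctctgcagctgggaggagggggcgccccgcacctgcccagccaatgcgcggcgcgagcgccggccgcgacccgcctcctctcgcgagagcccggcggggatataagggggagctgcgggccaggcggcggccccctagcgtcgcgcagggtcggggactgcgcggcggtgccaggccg
SLC25A47, chr14:100323089-100323388, plus strand: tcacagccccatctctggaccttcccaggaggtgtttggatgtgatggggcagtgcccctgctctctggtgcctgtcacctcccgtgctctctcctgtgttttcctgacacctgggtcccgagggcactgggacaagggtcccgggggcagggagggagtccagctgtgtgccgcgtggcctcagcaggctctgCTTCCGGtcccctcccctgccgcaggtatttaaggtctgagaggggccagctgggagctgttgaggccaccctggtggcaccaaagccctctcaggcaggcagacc
SLC25A40, chr7:87876311-87876610, minus strand: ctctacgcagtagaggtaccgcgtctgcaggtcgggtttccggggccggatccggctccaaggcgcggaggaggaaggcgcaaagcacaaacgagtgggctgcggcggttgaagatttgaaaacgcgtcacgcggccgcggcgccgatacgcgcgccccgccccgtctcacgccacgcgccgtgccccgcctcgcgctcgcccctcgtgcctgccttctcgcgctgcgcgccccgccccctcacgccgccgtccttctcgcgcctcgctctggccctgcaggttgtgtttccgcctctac
SLC25A31, chr4:127730150-127730449, plus strand: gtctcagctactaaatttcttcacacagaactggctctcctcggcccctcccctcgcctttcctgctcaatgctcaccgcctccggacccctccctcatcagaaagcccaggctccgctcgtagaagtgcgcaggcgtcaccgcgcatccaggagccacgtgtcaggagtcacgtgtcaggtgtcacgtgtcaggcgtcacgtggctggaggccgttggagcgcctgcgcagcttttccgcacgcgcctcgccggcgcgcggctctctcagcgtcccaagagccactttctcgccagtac

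A peak within 1 kb of an end, called below a peak at an end, was found for 38 of the 48 carriers, or 79.2% (Wilson 95% interval, 65.7 to 88.3), beside 62.1% of all protein-coding genes. The fold of a peak is the enrichment of the immunoprecipitate over the input as the authors' peak caller gave it, and each gene is represented by its highest peak. With a peak over 5-fold there were 36 carriers, 75% beside a background of 57.5%. With a peak over 10-fold there were 26, 54.2% (40.3 to 67.4) beside 45.2%, an interval that includes the background. Over 20-fold there were 20, 41.7% (28.8 to 55.7) beside 27.6%. Among the 38 with a peak, the fold ranged from 3.75 to 90.5 with a median of 21.6 and quartiles of 8.36 and 30.7. The median over the 12444 protein-coding genes with a peak was 17.6, but the order of these medians depended on how peaks were joined. With summits in place of intervals within 1 kb, the median was 14.2 for carriers and 16.8 for protein-coding genes. The plot of fold by gene shows the family but for 1 gene.

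**Figure D1:**
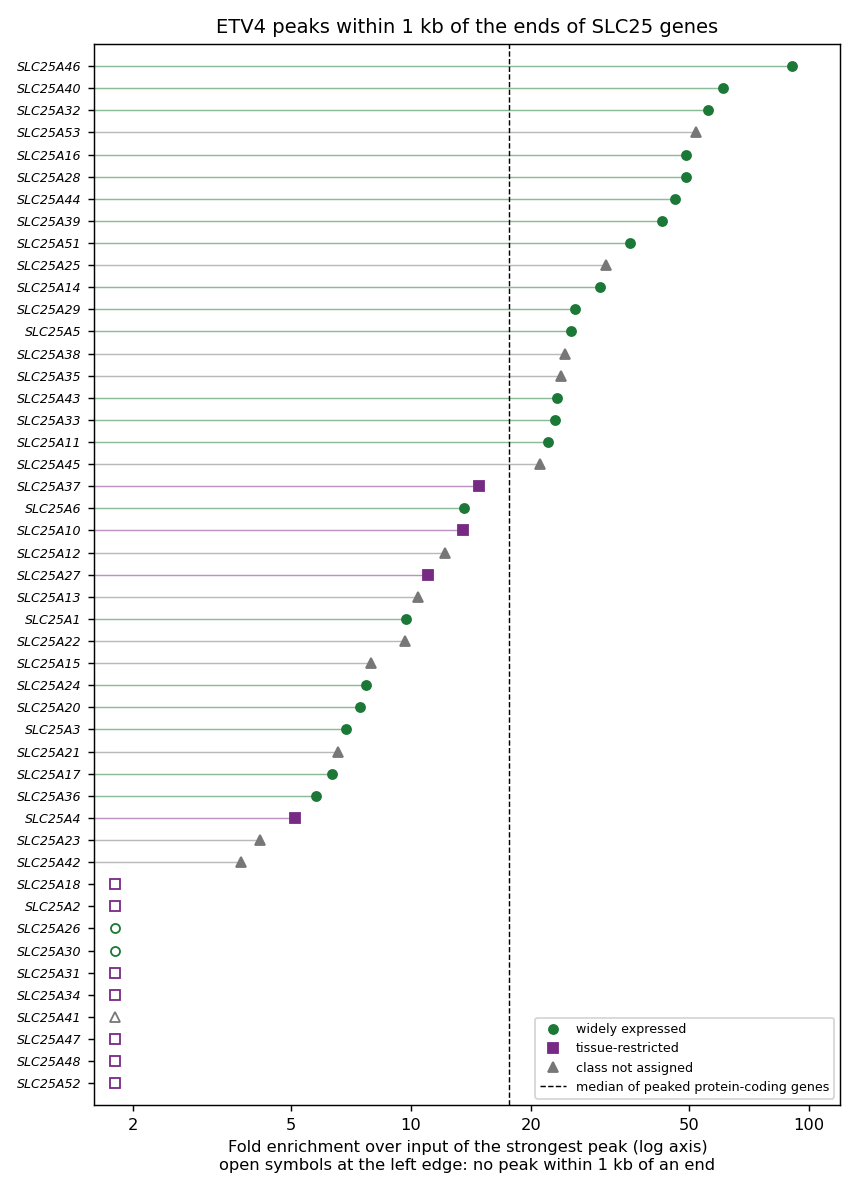
Fold enrichment over input of the strongest Flag-ETV4 peak within 1 kb of an end of 47 of the 48 SLC25 genes, on a log axis, with 1 symbol per gene from 1 library and no error bar. Filled symbols are 37 genes with a peak, open symbols at the left edge the 10 without, and the dashed line is the median of protein-coding genes with a peak, 17.6. No tissue-restricted gene lies to the right of that line.

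The highest peak belonged to SLC25A46, a carrier relative of the outer membrane that takes part in mitochondrial fission and lipid transfer. It lay at chr5:110738670-110740108 on hg38, was 90.5-fold enriched with a −log10 q of 456, and exceeded 98.7% of the 54389 peaks in the list. The depth behind it was 268 fragments at the summit (exact Poisson 95% interval, 237 to 302) against a control level of 1.97. Its summit was 89 bp downstream of the start in the window printed above, which holds CCGGAAG 3 times, at 61, 29 and 9 bp upstream of the start. Of all 22132 start windows, 0.348% hold 3 or more copies.

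SLC25A40 had the second highest fold, and its paralogue SLC25A39 was also among the 10 highest. Both import glutathione into the matrix, and their peaks were 60.9-fold and 42.8-fold enriched. The SLC25A40 peak, at chr7:87875661-87877332, rested on 245 fragments (215 to 278) over a control level of 3.04. The SLC25A39 peak rested on 114 (94.0 to 137) over 1.69. The summits lay 332 bp and 311 bp downstream of the start, so both peaks were centred in the first part of the gene and neither start window contains CCGGAAG. The SLC25A40 peak also reached DBF4, a regulatory subunit of a cell cycle kinase, which begins 133 bp away on the opposite strand.

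The carriers of cofactors, pyrimidines and metals, the group to which these belong, had a peak in 11 of 13 cases with a median fold of 28.9. That share is 84.6% (57.8 to 95.7), beside 62.1% of all protein-coding genes. The intervals of the other substrate groups below include this background too. SLC25A32, which carries folate or FAD, had a 55.8-fold peak of 281 fragments (249 to 316), the deepest of the family, at the highest control level among widely expressed carriers, 4.05. Its summit lay 278 bp beyond the gene, only 1 bp from where DCAF13 ends or begins. A second peak of 2.95-fold with 10 fragments lay at its other end. SLC25A51, the NAD+ carrier, had a 35.5-fold peak of 134 fragments (112 to 159), whereas the peak nearest to its close relative SLC25A52 was 32.6 kb away.

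The pyrimidine nucleotide carriers SLC25A33 and SLC25A36 differed in depth. SLC25A33 was 23.1-fold enriched with 61 fragments (46.7 to 78.4), and SLC25A36 5.79-fold with 14 (7.65 to 23.5). The SLC25A36 summit was also the farthest downstream among the 34 carriers with a summit at an annotated start, 615 bp from it. SLC25A17, the peroxisomal carrier of CoA and related cofactors, had a 6.33-fold peak of 16 fragments. SLC25A42, which carries CoA into mitochondria, had the lowest fold among the carriers' strongest peaks, 3.75, with 9 fragments (4.12 to 17.1) and a −log10 q of 2.97.

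The mitoferrins SLC25A28 and SLC25A37 bring iron into mitochondria, the first in many tissues and the second mainly in developing red cells. SLC25A28 had a 49.0-fold peak of 113 fragments at its outer end, 1 bp from the start of ENTPD7 on the opposite strand. Its annotated start lies farther inside the gene, and there a separate peak of 48.5-fold and 123 fragments (102 to 147) had its summit 345 bp downstream. SLC25A37 had a 14.8-fold peak of 42 fragments (30.3 to 56.8), the highest fold of any tissue-restricted carrier. The value for SLC25A28 thus was nearly the same whether its neighbour's end or its own start was used.

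SLC25A26, the S-adenosylmethionine carrier, had no peak within 1 kb of an outer end. Its annotated starts lie inside the outer span, and 83 bp downstream of one of them stood a 4.26-fold peak of 9 fragments. Among the carriers with a start window, only this one had a peak at a start and none at an outer end.

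Carriers of amino acids and related substrates had a peak in 8 of 10 cases, 80.0% (49.0 to 94.3) beside a background of 62.1%. Their median fold was 11.3. SLC25A44, which carries branched-chain amino acids, was 46.0-fold enriched with 104 fragments (85.0 to 126), and its summit was 7 bp downstream of the start. A second peak, of 36 fragments, lay at its 3′ end, next to PMF1. SLC25A29, for basic amino acids, and SLC25A38, the glycine carrier of heme synthesis, had folds of 25.8 and 24.4, both with 66 fragments. The aspartate/glutamate carriers SLC25A12 and SLC25A13 had similar values, 12.2-fold with 38 fragments (26.9 to 52.2) and 10.4-fold with 49 (36.3 to 64.8). These intervals overlap, and the higher fold of SLC25A12 went with the lower control level, 2.2 against 3.79.

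The other carriers of amino acids and related substrates were weaker or without a peak. The carnitine/acylcarnitine carrier SLC25A20 was 7.44-fold enriched. The glutamate carrier SLC25A22 had a 9.63-fold peak, with a second of 5.26-fold at its 3′ end beside CEND1, while its paralogue SLC25A18 had none within 8.85 kb. The ornithine carrier SLC25A15 had a 7.93-fold peak, and its paralogue SLC25A2 had none within 16.2 kb. In both pairs the gene without a peak was the tissue-restricted one, while its paralogue was assigned to no expression class.

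Phosphate and adenine nucleotide carriers had a peak in 7 of 9 cases, 77.8% (45.3 to 93.7) beside a background of 62.1%. Their median of 7.71-fold was the lowest of the groups. The 4 ADP/ATP carriers spanned the range of the classes. SLC25A5, the form of dividing cells, was 25.2-fold enriched with 74 fragments (58.1 to 92.9) and a summit 9 bp downstream of the start. SLC25A6, which is made in most tissues, had a 13.6-fold peak of 30 fragments (20.2 to 42.8), which had its summit 738 bp upstream and reached an end of the opposite-strand gene LOC124900597. SLC25A4, the heart and muscle form, had 5.11-fold and 11 fragments (5.49 to 19.7), and SLC25A31, the testis form, had no peak within 7.57 kb. The intervals of SLC25A5 and SLC25A4 do not overlap, at control levels of 1.97 and 1.35.

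The phosphate carrier SLC25A3 itself had only a 6.86-fold peak, of 29 fragments over a control level of 3.38. Among the ATP-Mg/phosphate carriers, which are regulated by calcium, SLC25A25 stood out with 30.9-fold and 103 fragments (84.1 to 125), 12 bp downstream of its start. SLC25A24 had 7.71-fold and SLC25A23 4.18-fold, the latter with 13 fragments and a second peak of 2.97-fold upstream. SLC25A41 had no peak within 1 kb, and the nearest was 1.14 kb from its end, just outside the limit used.

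All 4 carriers of citrate, dicarboxylates and 2-oxoglutarate had a peak, with a median of 11.6-fold. The 2-oxoglutarate carrier SLC25A11 had the highest, 22.1-fold with 66 fragments, but its summit was 898 bp upstream and nearer to RNF167 on the opposite strand. The dicarboxylate carrier SLC25A10 was 13.5-fold enriched, the citrate carrier SLC25A1 9.69-fold in a peak shared with CLTCL1, and the oxodicarboxylate carrier SLC25A21 6.57-fold. Of the uncoupling-protein-like carriers, SLC25A14 had 29.9-fold with 72 fragments (56.3 to 90.7) and SLC25A27 11.1-fold at the highest control level of the family, 5.06. SLC25A30 had no peak within 2.99 kb of its ends, although 3 peaks lay inside the gene.

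Of the 9 carriers placed in no substrate group, 6 had a peak, 66.7% (35.4 to 87.9) beside a background of 62.1%. Their median of 36.4-fold was the highest of the groups. Besides SLC25A46, SLC25A53 had 52.1-fold with 118 fragments (97.7 to 141) and SLC25A16 49.1-fold with 130 (109 to 154). SLC25A35 had 23.8-fold, SLC25A43 23.2-fold and SLC25A45 21.1-fold. The SLC25A45 peak was centred 9 bp from an inner start, 1739 bp inside the outer end, and a second, of 2.70-fold, lay upstream. SLC25A34, SLC25A47 and SLC25A48 had no peak within 15.1, 14.8 and 18.9 kb of an end.

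Carriers were then compared by how widely they are known to be expressed, from general knowledge and not from a measurement in these cells. Of 24 carriers classed as widely expressed, 22 had a peak, or 91.7% (74.2 to 97.7). The 2 without were SLC25A26 and SLC25A30. Of 11 classed as tissue-restricted, 4 had a peak, or 36.4% (15.2 to 64.6), and these were SLC25A4, SLC25A10, SLC25A27 and SLC25A37. With these lists the 2 intervals do not overlap, and the background of 62.1% lies between the shares. The 13 carriers left without a class had a peak in 12 cases, or 92.3% (66.7 to 98.6), with SLC25A41 as the exception.

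The classes also differed in the height of their peaks. Over 20-fold there were 15 of 24 widely expressed carriers, 62.5% (42.7 to 78.8), and 0 of 11 restricted ones, for which the Wilson upper bound is 25.9%. The share of all protein-coding genes over 20-fold was 27.6%, only just above that bound. Among those with a peak, the median fold was 25.5 for widely expressed carriers, with a range of 5.79 to 90.5, and 12.3 for the 4 restricted ones, with a range of 5.11 to 14.8. The control levels at these summits overlapped, at 1.28 to 4.05 in the first class and 1.35 to 5.06 in the second. The widely expressed class therefore covered both strong and weak peaks, while the restricted class lacked strong ones. The shares depended on where the classes were drawn. With the 13 unclassed carriers counted as restricted, 16 of 24 had a peak, 66.7% (46.7 to 82.0). That interval includes the background of 62.1% and overlaps the interval of the widely expressed class. In a core of 7 carriers with the narrowest expression, SLC25A2, SLC25A27, SLC25A31, SLC25A34, SLC25A47, SLC25A48 and SLC25A52, only SLC25A27 had a peak. That is 14.3% (2.57 to 51.3), beside 62.1% of all protein-coding genes.

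**Figure D2:**
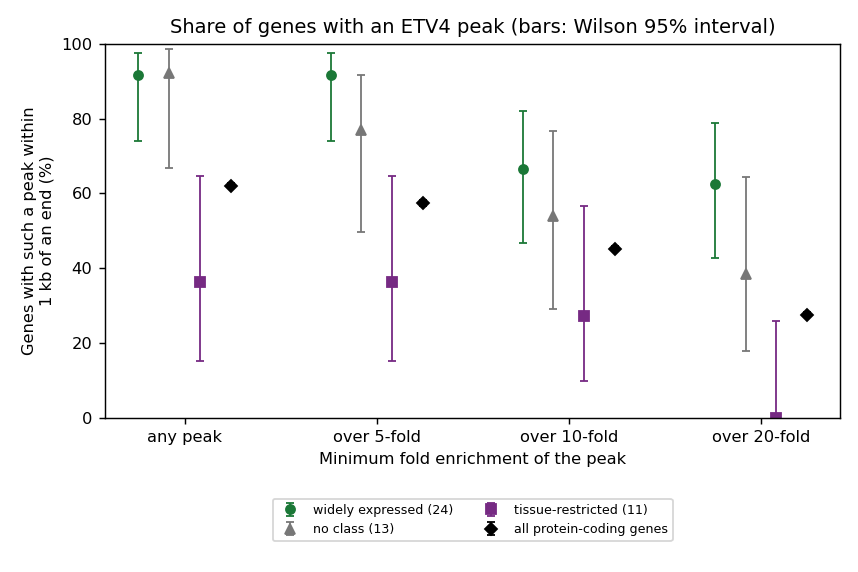
Percentage of genes with a Flag-ETV4 peak within 1 kb of an end, at 4 minimum folds, for 24 widely expressed, 13 unclassed and 11 tissue-restricted SLC25 genes and for all 20037 protein-coding genes. Bars are Wilson 95% intervals over genes in 1 library. The share of widely expressed carriers went from 91.7% for any peak to 62.5% over 20-fold, and that of restricted carriers from 36.4% to 0%.

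Several sets of paralogues were split by the presence of a peak or by its fold. A restricted member was the one without a peak in SLC25A2 against SLC25A15, SLC25A18 against SLC25A22, SLC25A31 against the other ADP/ATP carriers and SLC25A52 against SLC25A51 and SLC25A53. SLC25A41 was the one among the ATP-Mg/phosphate carriers. Of the members named so far in this paragraph, SLC25A15, SLC25A22, SLC25A41 and SLC25A53 were left without a class. SLC25A47 and SLC25A48, both restricted, had none at an end. Among the uncoupling-protein-like carriers the order was the other way, as the widely expressed SLC25A30 had none at an end. The restricted SLC25A27 had a peak there of 11.1-fold, and the widely expressed SLC25A14 had one of 29.9-fold. SLC25A28 and SLC25A37, like SLC25A33 and SLC25A36, each had a peak but at folds that differed more than 3 times.

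The depth behind the peaks varied far more than the control level did. The 38 strongest peaks held 9 to 281 fragments at the summit, 63.5 at the median, beside 54 over protein-coding genes with a peak and 26 over all peaks. The control level ranged from 1.28 to 5.06 with a median of 1.82, and 6 of the 38 were within 0.005 of the lowest level in the list. Over these 38 genes Spearman's rho between fold and control level was 0.0625 and between fold and peak width 0.498, as descriptions over genes of 1 library. Width had a median of 1138.5 bp, beside 1062.5 bp for protein-coding genes. The plot of depth shows that weak peaks such as those of SLC25A42, SLC25A4 and SLC25A23 have wide intervals that overlap one another.

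**Figure D3:**
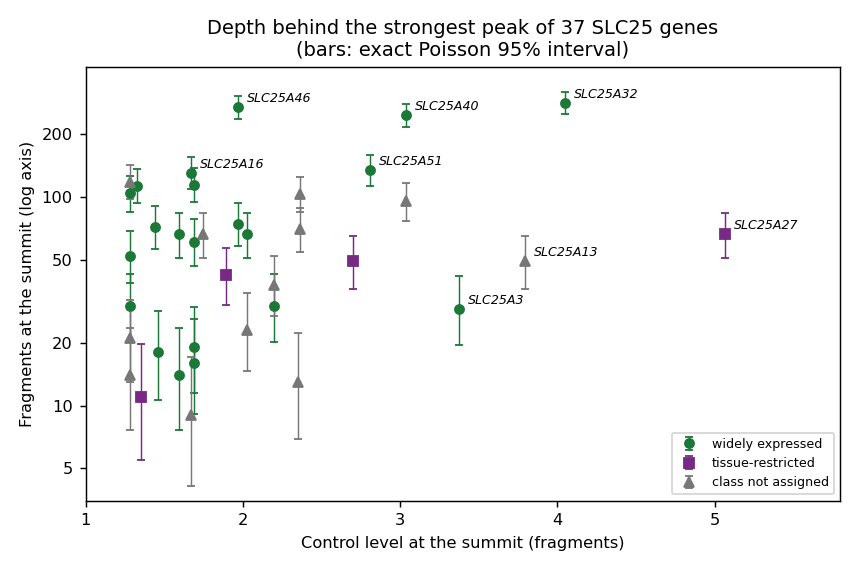
Fragments at the summit (log axis) against the control level at the summit, both in fragments, for the strongest peak of each of 37 SLC25 genes in 1 library. Bars are exact Poisson 95% intervals for counting error only. The 3 deepest peaks, of SLC25A32, SLC25A46 and SLC25A40, hold 281, 268 and 245 fragments, and all 3 classes span control levels from below 2 to above 3.

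In 12 of the 38 carriers with a peak, the strongest peak also reached the end of another protein-coding gene. That share, 31.6% (19.1 to 47.5), is close to the 29.8% of all protein-coding genes with a peak. Among the 10 highest carriers 6 shared their peak, 60% (31.3 to 83.2). The median fold was 29.9 for the 12 shared and 14.2 for the 26 unshared peaks. No such values over all protein-coding genes are given here, so these cannot be read as particular to the carriers. In 7 of the 12 the summit was nearer to the carrier than to the other gene. It was nearer to the other gene in the remaining 5, among them SLC25A1, SLC25A11, SLC25A28 and SLC25A32. For SLC25A46 the summit was 89 bp from its own start and 142 bp from TMEM232, and for SLC25A53 63 bp and 120 bp from FAM199X. For SLC25A27 the distances were 341 bp and 498 bp from CYP39A1. Which gene a shared peak belongs to cannot be told from its position.

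At the level of transcription starts, 34 of the 40 carriers with a start window had a summit within 1 kb of a start. This is 85.0% (70.9 to 92.9), beside 62.2% of 15812 protein-coding genes with a window. That background is not matched for CpG content, by which peaks at a start are split below. At the outer 5′ end 33 of 40 had a peak and at the outer 3′ end 2 of 40, SLC25A22 and SLC25A44. Those shares, 82.5% and 5.0%, stood beside 61.4% and 9.58% of protein-coding genes, so the carriers' peaks lay mostly at starts. The summit position ranged from 898 bp upstream for SLC25A11 to 615 bp downstream for SLC25A36, with a median of 92 bp downstream. It was downstream of the start in 26 of 34 carriers, 76.5% (60.0 to 87.6), beside 58.0% of 9833 protein-coding genes. Within 100 bp of a start lay 12 of 34, or 35.3%, beside 32.6%.

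High folds were found both at the start and farther into the gene, over ranges chosen after the values were seen. Within 100 bp of a start, SLC25A5, SLC25A14, SLC25A25, SLC25A38, SLC25A44, SLC25A45, SLC25A46 and SLC25A53 had folds from 21.1 to 90.5, while SLC25A4, SLC25A21, SLC25A23 and SLC25A26 had folds from 4.18 to 6.57. From 293 to 345 bp downstream, SLC25A12, SLC25A27, SLC25A28, SLC25A39, SLC25A40, SLC25A43 and SLC25A51 had folds from 11.1 to 60.9.

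**Figure D4:**
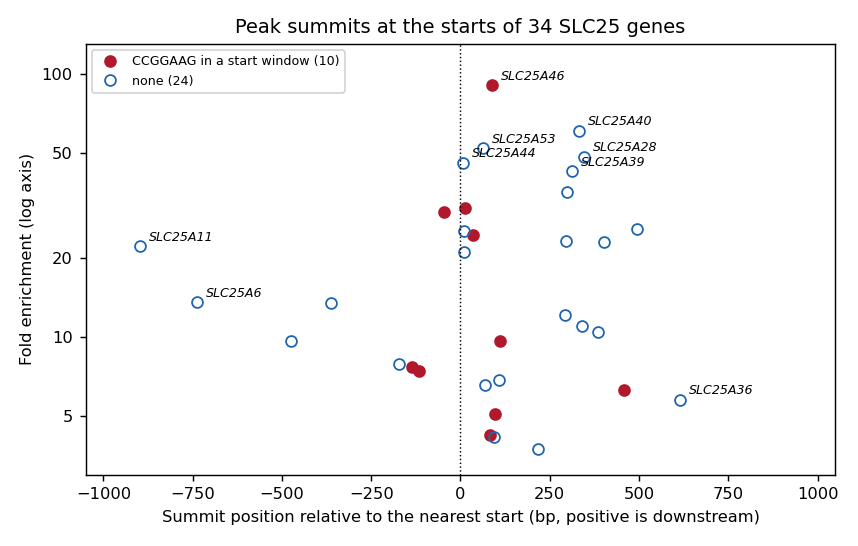
Position of the strongest summit within 1 kb of a start, in bp relative to the nearest start with positive values downstream, against fold enrichment on a log axis, for 34 SLC25 genes in 1 library. Filled points are the 10 genes with CCGGAAG in a start window and open points the 24 without. Of the 34 points 26 lie to the right of the start, and filled points span folds from 4.26 to 90.5.

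CCGGAAG was searched on both strands of the start windows. It was present for 10 of the 34 carriers with a peak at a start, 29.4% (16.8 to 46.2), beside 22.8% of 10200 protein-coding genes with a start peak and 5.04% of 5612 without. These were SLC25A4, SLC25A14, SLC25A17, SLC25A20, SLC25A22, SLC25A24, SLC25A25, SLC25A26, SLC25A38 and SLC25A46. Of the 6 carriers with a window and no start peak, SLC25A47 had it. Of all start windows 12.8% hold it, whereas the GGAA core alone is found in 95.2% and therefore separates little.

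The presence of the motif in a start window did not track the height of the carriers' peaks. These windows end 50 bp after a start, whereas the median summit lay 92 bp downstream. The sequence under many summits was therefore not searched, and a gene counted as without the motif may hold a copy there. The median fold was 8.67 for the 10 start peaks with the motif and 17.3 for the 24 without, whereas over all protein-coding genes it was 20.1 with and 16.5 without. The 10 ranged from 4.26-fold at SLC25A26 to 90.5-fold at SLC25A46. The distance from summit to the nearest copy was 26 bp for SLC25A20, 30 bp for SLC25A14, 56 bp for SLC25A24, 58 bp for SLC25A38, 65 bp for SLC25A25 and 98 bp for SLC25A46. It was 144 bp for SLC25A26, 249 bp for SLC25A4, 504 bp for SLC25A17 and 1527 bp for SLC25A22, so the copy counted lay well away from the summit in the last 3. In the windows above, the copy of SLC25A4 lies 151 bp upstream of the start, that of SLC25A14 15 bp, that of SLC25A38 22 bp and that of SLC25A47 53 bp.

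CpG content of the start windows moved with the classes. The CpG ratio is the number of CpG dinucleotides over that given by the window's C and G content, and 0.6 is a usual limit for a CpG-rich promoter. At or above it, 83.3% of protein-coding genes had a peak at a start, and below it 20.2%. All 20 widely expressed carriers with a window were above the limit, and all 20 had a peak at a start. Of 9 restricted carriers with a window, 6 were above, and 3 of these had a start peak, SLC25A4, SLC25A10 and SLC25A27. The 3 below it, SLC25A18, SLC25A47 and SLC25A34, with ratios of 0.192, 0.221 and 0.271, had none.

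SLC25A31, SLC25A48 and SLC25A52 had ratios of 0.949, 0.989 and 1.03 and no start peak. SLC25A45 had a ratio of 0.430 and a 21.1-fold peak at a start. CpG content and class therefore overlapped in part, and their separate parts in the presence of a peak were not tested.

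**Figure D5:**
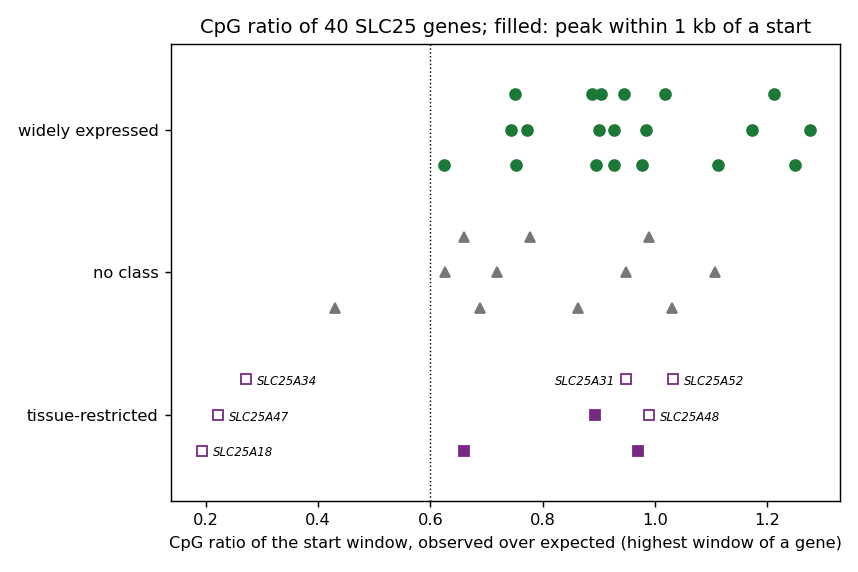
CpG ratio of the start window (observed over expected, highest window of a gene) for the 40 SLC25 genes with a window, by class, with vertical offsets only to separate points. Filled symbols have a peak within 1 kb of a start and open symbols, which are named, have none. The dotted line is at 0.6, and the 6 open symbols are all tissue-restricted, 3 on each side of it.

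Other gene families in the same list put these shares in context. Of 332 other SLC genes, which encode transporters mostly of other membranes, 54.5% (49.1 to 59.8) had a peak at an end, at a median fold of 19.0. Of 77 genes for mitochondrial ribosomal proteins, 85.7% (76.2 to 91.8) had one, with a median of 14.4. The carriers' 79.2% lay between them, and its interval overlaps that of the ribosomal protein genes.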

How the data were processed

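The authors deposited the peaks of 1 anti-Flag ChIP-seq library in narrowPeak layout on hg38. Besides an interval and a summit, each peak has its fold over input, a ratio, −log10 p and −log10 q values, and a display score from the authors' software that was not used. The submitters' processing notes name Bowtie2 2.4.1, SAMtools, MACS2 2.2.7.1 and deepTools 3.5.0; parameters and the handling of duplicates are not given in the sources used here. The lowest −log10 q was 1.30. The Flag antibody differs between the methods, CST, and the labels, Sigma.

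Peak intervals were joined to the ends of RefSeq genes, and summits to start windows (GRCh38.p14), which gave strand. SLC25A6, on X and Y, was taken on X. The fragments at the summit (pileup) and the control level were solved from fold and p, taking a pseudocount of 1 and Poisson counts, and every pileup came within 0.00914 of a whole number. A total depth is not in the list, and that pileup sets the precision. Intervals cover counting error only. The functions were tested on simulated data. The values of 1 carrier are not reported here, although the counts and medians include it; every other carrier is named. The genes and lists were chosen with earlier results of these data known, and the classes from general knowledge. Alternatives were windows of 500 bp and 3 kb, folds over 5 and 10, −log10 q of at least 10, summits, other classes, another motif and, added after the data were seen, annotated starts, a CpG limit and summits for all genes. Tools were pandas 2.3.3, numpy 2.4.6 and scipy 1.17.1 in Python 3.11.15, with plots from matplotlib 3.10.9.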

Additional observations from a re-analysis of the deposited data

How the results depend on the processing

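Of 43 alternatives, 36 gave a value within 1.5 times that reported, with counts and not shares compared. Among them were all those for the count of 38 carriers with a peak. That count ranged from 26 over 10-fold to 40 with a window of 3 kb. The 26 had a share of 54.2% (40.3 to 67.4), whose interval includes the background of 45.2%. Restricted carriers with a CpG ratio of at least 0.6 were also within the factor by count, at 3 of 6, or 50% against 36.4%. With the carriers of no class counted as widely expressed, 34 of 37 had a peak, which left the share nearly as it was (91.9% against 91.7%). The restricted share moved with its list, to 16 of 24 with those of no class included and 1 of 7 in the core. Over 10-fold, 21 of 40 carriers had a start summit, for which no share of all genes at that fold is given here. Of the 30 genes for carrier import and mitochondrial transport described below, 16 had a peak over 10-fold at an end, 53.3% (36.1 to 69.8). That interval includes the 45.2% of protein-coding genes. The median fold of carriers was 14.2 with summits in place of intervals, and the median pileup used in its place was 63.5 fragments. The cause of these shifts was not tested beyond the construction of each alternative. No paired analysis was possible because there was 1 library of each kind, and no replicate could be left out for the same reason. Depth limits most the weakest peaks, such as that of SLC25A42 with 9 fragments (4.12 to 17.1).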

Other observations

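The machinery that imports carriers and other transport proteins of mitochondria were described in the same way. The list of 30 genes includes carrier family members with other symbols, UCP1, UCP2, UCP3, MTCH1 and MTCH2, which the carrier counts above leave out. A peak at an end was found for 27, or 90.0% (74.4 to 96.5), with a median of 17.2-fold, beside 62.1% and 17.6-fold over protein-coding genes. SFXN1, a serine transporter of the inner membrane, was highest at 67.7-fold with 226 fragments, followed by ABCB10 at 56.9-fold, the pyruvate carrier subunit MPC1 at 46.7-fold and the calcium uniporter MCU at 40.4-fold. Within the TIM22 pathway, TIMM10B had 23.1-fold, TIMM29 21.8-fold, TIMM10 18.8-fold, TIMM22 8.33-fold, AGK 6.49-fold and TIMM9 4.31-fold, and the receptor TOMM70 had 37.4-fold. The 3 without a peak were UCP1, the uncoupling protein of brown fat, UCP3, that of muscle, and MPC1L, a testis form of the pyruvate carrier, whereas UCP2 had a 9.63-fold peak.

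Inside the carrier genes, more than 1 kb from both ends by their summits, there were 36 peaks in 16 genes, or 1.52 per 100 kb beside 1.72 over protein-coding genes. By class, tissue-restricted carriers held 13 such peaks, or 2.81 per 100 kb, and widely expressed ones 12, or 1.37 per 100 kb. Of the 13, SLC25A37 held 7 and SLC25A48 held 5, so the restricted rate rested largely on these genes. The median of all 36 was 8.84-fold, and 3 of the 36 lay at inner starts, those of SLC25A26, SLC25A28 and SLC25A45. The SLC25A45 peak was also that gene's strongest peak at an end. SLC25A30, SLC25A35, SLC25A37 and SLC25A41 had no start window, so their inner peaks could not be placed at a start. The 7 peaks inside SLC25A37 reached up to 24.6-fold, in a gene with a peak of 14.8-fold at its end. SLC25A30, with no peak at its ends, held 3, of 14.0-fold, 37.6-fold and 25.9-fold, and the last 2 reached an end of its antisense gene SLC25A30-AS1. SLC25A48 held 5, of 3.78-fold to 10.1-fold, and SLC25A21 held 4, up to 20.1-fold. SLC25A41 held 1 of 20.8-fold.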
